A study of Oryza sativa and Arabidopsis thaliana with 16 samples.

Results

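The comparison described here is that of nitrogen-treated against KCl-treated roots of rice (Oryza sativa), on 4 of the 16 arrays of a series that profiled rice and Arabidopsis seedlings. The arrays were chosen by their labels alone. There were 2 nitrogen root arrays and 2 KCl root arrays, and no measured value entered the choice of arrays. The comparison itself and the gene lists were chosen with earlier results of these data known. The plants were wild type and 13 days old. The nitrogen group received KNO3 and NH4NO3, each at a final 20 mM, and the KCl group received KCl at 20 mM, in both cases for 2 h from the start of the light period. All plants had been raised on MS salts that held ammonium succinate at 0.5 mM and sucrose at 3 mM, so the KCl roots were not without nitrogen. They were grown in hydroponics at 27 °C with fresh medium every 3 days. The 4 rice shoot arrays, 2 per treatment with the same genotype, age and treatments, served to estimate the spread and to set each root change beside its shoot change. The groups differed in nitrate, in ammonium, in chloride and in the total salt added, and the effects of these cannot be told apart. The titles call the arrays of a group biological replicates, with no statement of how many plants each held. The protocols speak of harvesting whole seedlings, while titles and tissue labels say root, and the groups follow the tissue label.

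Roots take up nitrate and ammonium through separate transporter families. Nitrate is reduced to nitrite by nitrate reductase in the cytosol and then to ammonium by nitrite reductase in the plastid. Ammonium enters amino acids through glutamine synthetase and glutamate synthase. In root plastids, which lack photosynthetic electron transport, the reductant comes from NADPH made in the oxidative pentose phosphate pathway and passed to ferredoxin. Nitrate also acts as a signal in its own right, and transcripts of the enzymes of its assimilation are known to respond to it within minutes to hours.

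Signal was the deposited log2 value of each probe set after RMA (robust multi-array average, a background correction and normalisation over arrays followed by a summary of each set's probes). The 57381 probe sets included 123 manufacturer's controls, which left 57258 for the test. Across probe sets, replicate arrays correlated at 0.993 to 0.994 and root with shoot arrays at 0.888 to 0.915. Nitrogen with KCl root arrays correlated at 0.989 to 0.993. Nitrogen replicate 2 correlated with KCl root replicate 2 at 0.9930 and with nitrogen replicate 1 at 0.9925. Root nitrogen replicate 1 stood apart from the other root arrays in several respects. With each shoot array it correlated less than any other root array did, at 0.888 to 0.899. All 5 ribosomal RNA control probe sets were highest on it of the 4 root arrays, with an 18S rRNA probe set at 10.7 on that array, 8.52 on nitrogen replicate 2, and 8.52 and 8.75 on the KCl arrays. The numbers of called rises and falls are therefore also given without that array. Its part in the changes was not otherwise tested. The labels held against tissue markers. Of 11 root markers, 10 were higher in KCl roots than in KCl shoots, and all 12 photosynthesis markers were lower in roots, at a limma adjusted p under 0.05. Between these tissues 28.6% of probe sets passed, 17.1% higher and 11.5% lower in roots. The root marker that was lower in roots was SCR1. The photosynthesis genes had signal in roots too. Their mean log2 signal was 8.49 on nitrogen replicate 1 and 9.63 on nitrogen replicate 2, between 9.21 and 9.60 on the KCl root arrays, and between 12.5 and 12.6 on the shoot arrays of either treatment.

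A probe set was called where the Benjamini-Hochberg adjusted p of limma's moderated test, over all 57258, was under 0.05. By this rule 140 probe sets changed in nitrogen-treated roots, which is 0.245% of those tested. In whole organs, fewer cells of a type and less RNA per cell cannot be told apart. Of these, 104 rose (0.182%) and 36 fell (0.0629%). The median log2 change was 1.20 among the rises and -1.03 among the falls, against -0.02 over all probe sets. A rise of at least 1 on the log2 scale, a doubling of the signal, was seen in 73 of the 104, and a fall of that size in 20 of the 36. Over all probe sets, called or not, 0.307% had a change of at least 1 and 0.148% a change of -1 or less. In all 140 the nitrogen arrays and the KCl arrays did not overlap. With 2 arrays a group this separation is common, since nitrogen lay above KCl in 18.2% of all probe sets and below it in 23.1%. At an unadjusted p under 0.05 there were 6019 probe sets (10.5%), 3077 higher and 2942 lower.

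The number of calls depended on single arrays. Without root nitrogen replicate 1 there were 38 rises and 4 falls, among them 30 of the 104 rises and 3 of the 36 falls. Without root nitrogen replicate 2 there were 81 rises and 112 falls. Leaving out KCl replicate 1 gave 26 rises and 6 falls, and leaving out KCl replicate 2 gave 13 and 5. All 140 kept their direction in each of these 4 fits, which could not be otherwise, since their nitrogen and KCl arrays did not overlap.

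The called probe sets represented 103 genes, 81 of them with a rise and 22 with a fall. The annotation named 19 of the 81 and 3 of the 22, and the other genes carried a locus number only. A further 19 rising and 11 falling probe sets were paired with no single gene. The called genes lay on all 12 chromosomes, from 4 genes on chromosome 11 to 19 on chromosome 1. These counts were not set against the number of genes measured on each chromosome. For 29 of the 103 genes the array held several probe sets. All probe sets of a gene had changes of the same sign in 23 of the 29, and all were called in 3. Some of these changes were near 0, such as -0.03 for the second CYP714C2 probe set. The 29 genes entered through a called probe set, and the share over all genes with several probe sets was not computed.

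**Figure D1:**
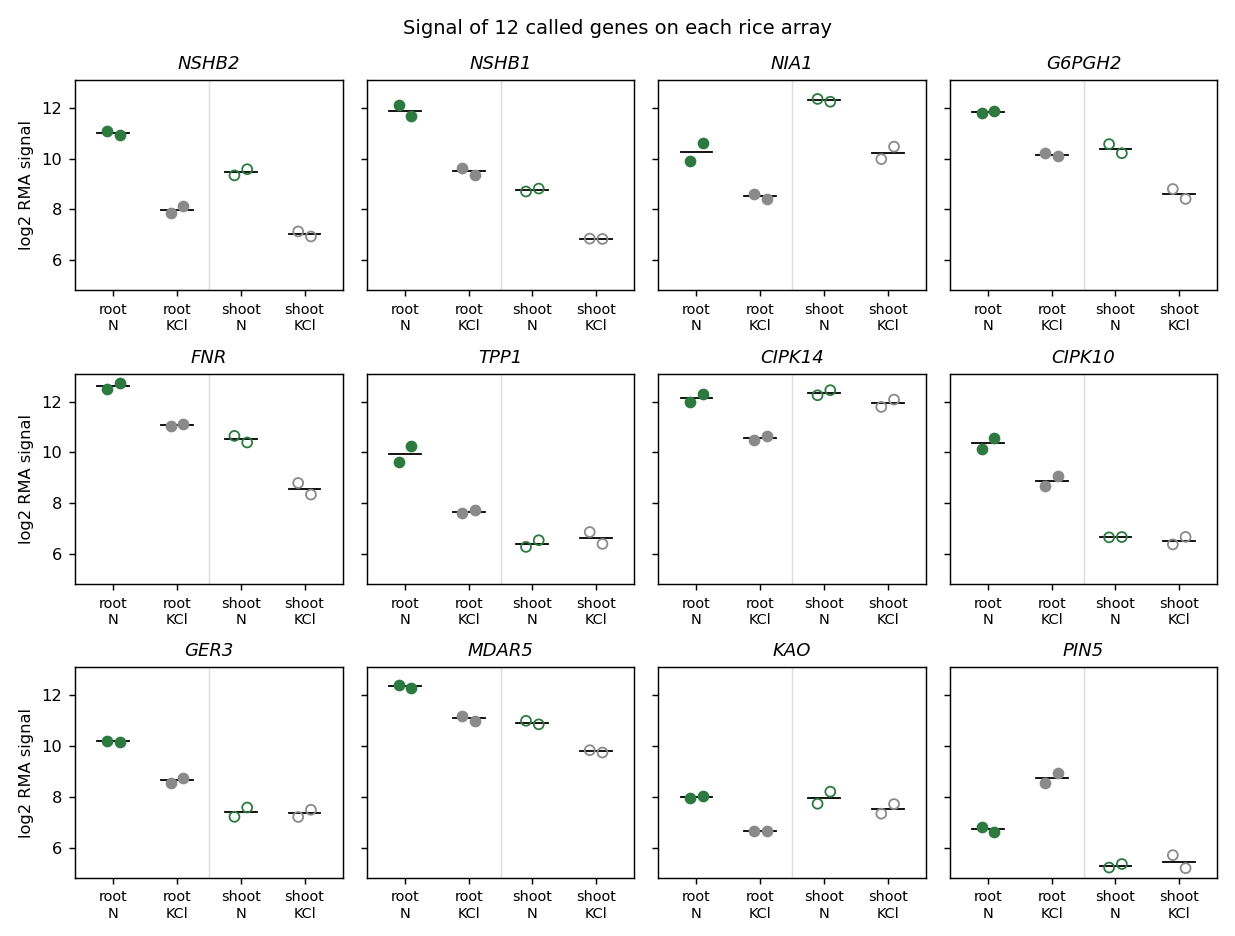
Log2 RMA signal (vertical axis) of 12 called genes on each of the 8 rice arrays, with filled points for roots, open points for shoots, green for nitrogen, grey for KCl and a bar at the mean of each pair. In roots the nitrogen points lie above both KCl points in every panel but that of PIN5, where they lie below.

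The non-symbiotic hemoglobins gave the largest changes of any named genes. These proteins bind oxygen and scavenge nitric oxide, which nitrate reductase can produce from nitrite. NSHB2 (LOC4332123, chromosome 3) had log2 signals of 11.08 and 10.92 in nitrogen roots, against 7.85 and 8.13 in KCl roots. The groups lay far apart, with a change of 3.01 ± 0.14 (SE, n = 2 arrays a group) and a limma adjusted p of 0.000506, or 8.03 times the KCl signal. NSHB1 (LOC4332166, chromosome 3) was read by 3 probe sets, and all of them rose, by 2.71, 2.39 and 2.31. On the brightest of these NSHB1 had 12.10 and 11.66 in nitrogen roots, against 9.64 and 9.35 in KCl roots. The other NSHB1 probe sets carry an s or x in their ID, by which the manufacturer marks probes that may match further transcripts. Probe sets of this kind were also read for NRT2.2, NRT2.3, the ferredoxin gene, PPDK2 and RAB21 below, among others. Both measured hemoglobin genes rose, and on their brightest probe sets the calls held in each of the 8 fits that left out 1 array. NSHB2 changed by 2.43 in shoots and NSHB1, on its brightest probe set, by 1.92.

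Of the 4 measured genes of nitrate transport and reduction, 1 rose and none fell. In this and every other list, the measured members are genes with a matching symbol. Since 2457 of all 17905 genes had a name, the lists need not hold whole families, and no nitrite reductase gene was among the 4. The median change of a list is given with its range over the 4 fits that each left out 1 root array, and the median over all 17905 genes was 0.01. For 15 of the 33 lists the median changed sign in at least 1 of those fits. For the nitrate list it was 0.07 (0.01 to 0.13). By the same rule 0.531% of all 17905 genes were called when each was read by its brightest probe set, 0.419% higher and 0.112% lower. The gene that rose was NIA1 (LOC4345795, chromosome 8), a nitrate reductase. NIA1 had 9.92 and 10.61 in nitrogen roots, against 8.62 and 8.41 in KCl roots. The groups were apart by more than the gap within either, with a change of 1.75 ± 0.23 (limma adjusted p = 0.0336). The NIA1 call was lost without nitrogen replicate 2, without either KCl root array and without either nitrogen shoot array, at adjusted p up to 0.145. A second, dim NIA1 probe set had 5.62 and 5.49 in nitrogen roots, against 5.75 and 5.56 in KCl roots, a change of -0.10 that was not called. The probe sets of this gene disagree.

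The remaining nitrate genes were transporters and a partner protein. NRT2.2, a high-affinity nitrate transporter, had a change of 0.32 ± 0.13 (limma adjusted p = 0.420). NRT2.3, of the same family, had 5.88 and 5.63 in nitrogen roots, against 6.86 and 6.17 in KCl roots. Its change of -0.76 ± 0.23 was not called (limma adjusted p = 0.278). NAR2.2, whose family members bring NRT2 transporters to the membrane, had a change of -0.18 ± 0.13. A dim probe set with no gene listed, whose ID begins like that of the NRT2.2 probe set, was among the called falls. Its means were 3.98 in nitrogen roots and 4.91 in KCl roots, a change of -0.93 ± 0.12 (limma adjusted p = 0.031). Whether it reads NRT2.2 was not tested.

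In the list of NADPH supply and ferredoxin reduction, 2 of 6 measured genes rose and none fell, and neither was called without nitrogen replicate 1. The list's median change was -0.01 (-0.07 to 0.47), and the highest of these values was that without nitrogen replicate 1. G6PGH2 (LOC4350528, chromosome 11), a 6-phosphogluconate dehydrogenase of the pentose phosphate pathway, had 11.80 and 11.88 in nitrogen roots, against 10.22 and 10.09 in KCl roots. The arrays within each group were close, and the change was 1.69 ± 0.16 (limma adjusted p = 0.0114). A dimmer probe set of G6PGH2 changed by 1.41 and was not called (adjusted p = 0.0881). G6PGH1, the other measured gene of this enzyme, had 11.30 and 11.11 in nitrogen roots, against 11.48 and 11.24 in KCl roots. Its groups overlapped, with a change of -0.16 ± 0.18.

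Among ferredoxin-NADP reductases, which pass electrons between NADPH and ferredoxin, 1 of 3 measured genes rose. The FNR gene LOC4334338 (chromosome 3) had 12.49 and 12.73 in nitrogen roots, against 11.02 and 11.10 in KCl roots. It rose by 1.55 ± 0.17 (limma adjusted p = 0.0172). Its KCl signal was also 2.50 higher in roots than in shoots. The other reductase genes, LOC4342399 and LOC4339874, changed by 0.03 ± 0.12 and -0.04 ± 0.44, and the LOC4339874 signal was 6.42 lower in KCl roots than in KCl shoots. The measured ferredoxin gene, LOC4344439, changed by -0.81 ± 0.47 and was not called. The G6PGH2 and FNR calls were lost without nitrogen replicate 1 or either KCl root array, and that of FNR also without nitrogen replicate 2, at adjusted p up to 0.0714 for G6PGH2 and 0.100 for FNR. In shoots G6PGH2 changed by 1.78 and this FNR gene by 1.95.

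No member of the ammonium and amino nitrogen list was called on its brightest probe set. The list had 17 measured members and a median change of 0.02 (-0.08 to 0.12 without 1 root array), with the value of 0.12 found without nitrogen replicate 1. GLN2 (LOC4337272, chromosome 4), the plastid glutamine synthetase, was called on the dimmer of its 2 probe sets. That GLN2 probe set had 6.53 and 6.74 in nitrogen roots, against 5.39 and 5.70 in KCl roots. The change was 1.09 ± 0.13 (limma adjusted p = 0.0224), and it lost its call in 6 of the 8 fits without 1 array, those that left out a root array or a nitrogen shoot array (adjusted p up to 0.102). The brighter GLN2 probe set had 11.13 and 11.52 in nitrogen roots, against 10.38 and 10.81 in KCl roots, and its change of 0.73 ± 0.17 was not called (adjusted p = 0.171). Both GLN2 probe sets gave nitrogen signals above KCl signals, by unequal amounts.

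The cytosolic glutamine synthetase genes gave small changes. GLN1-2, whose signal was 3.22 higher in KCl roots than in KCl shoots, changed by 0.14 ± 0.11, GLN1-1 by -0.19 ± 0.11 and GLN1-3 by -0.51 ± 0.15. The highest change in the list was that of the glutamate dehydrogenase gene GDH2, with 10.28 and 11.40 in nitrogen roots, against 9.39 and 9.87 in KCl roots. Its nitrogen arrays differed from each other by about as much as the groups did, and the change of 1.21 ± 0.34 was not called (adjusted p = 0.247). The lowest was that of the ammonium transporter AMT2-2, at -0.59 ± 0.26. The ammonium transporter AMT1-2, whose signal was 5.10 higher in KCl roots than in KCl shoots, changed by 0.09 ± 0.28.

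Among the 3 genes of organic acid synthesis, none was called, and their median change was 0.36 (-0.01 to 0.81). The pyruvate orthophosphate dikinase gene PPDK2 had 10.29 and 10.33 in nitrogen roots, against 9.33 and 8.69 in KCl roots. Its change of 1.30 ± 0.21 came near the threshold (limma adjusted p = 0.0629) and passed it without KCl replicate 1 (change 1.62, adjusted p = 0.0480). PDHE1-A, the E1 alpha subunit of pyruvate dehydrogenase and in none of the lists, rose by 1.00 ± 0.12 (adjusted p = 0.0224). It had 6.78 and 6.65 in nitrogen roots, against 5.82 and 5.62 in KCl roots, and its call was lost without nitrogen replicate 1, either KCl root array or either nitrogen shoot array (adjusted p up to 0.125).

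Of 48 genes of trehalose and sugar metabolism and transport, 1 rose and none fell, with a median change of 0.03 (-0.02 to 0.05). It was TPP1 (LOC4330221, chromosome 2), which removes the phosphate from trehalose 6-phosphate, a sugar signal in plants. TPP1 had 9.62 and 10.24 in nitrogen roots, against 7.61 and 7.71 in KCl roots. The change was 2.27 ± 0.22 (limma adjusted p = 0.0117), and the call was lost without either KCl root array (adjusted p up to 0.0794). In shoots TPP1 changed by -0.22. The lowest change in the list was that of the sucrose synthase gene SUS6, at -0.70 ± 0.21, and another sucrose synthase gene, SUS4, had 0.77 ± 0.15. Neither was called.

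Calcium-linked signalling genes moved in both directions. Of 31 CIPK and CBL genes, 2 rose and none fell, with a median change of -0.07 (-0.03 to 0.10). CIPKs are kinases that calcium-binding CBL proteins activate, and some of them act on nitrate and potassium transporters in Arabidopsis. CIPK14 (LOC4351307, chromosome 12) had 11.99 and 12.32 in nitrogen roots, against 10.50 and 10.64 in KCl roots, a change of 1.58 ± 0.15 (limma adjusted p = 0.0114). CIPK10 (LOC4332786, chromosome 3) had 10.14 and 10.58 in nitrogen roots, against 8.68 and 9.08 in KCl roots, a change of 1.48 ± 0.19 (adjusted p = 0.0274). All 4 probe sets of CIPK10 had changes between 1.35 and 1.75, and 1 of them was called. In each of these kinases the nitrogen arrays were the higher pair without overlap, as in 18.2% of all probe sets. CIPK14 lost its call without either KCl root array (adjusted p up to 0.0794) and CIPK10 without any 1 of the root arrays or either nitrogen shoot array (up to 0.125). The lowest member was CIPK12, at -0.59 ± 0.15.

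Of 26 calmodulin and calmodulin-like genes, 1 rose and 1 fell. These are calcium sensors with no catalytic activity of their own. CML16 (LOC4325693, chromosome 1) had 9.53 and 9.51 in nitrogen roots, against 8.70 and 8.57 in KCl roots. It rose by 0.88 ± 0.10 (limma adjusted p = 0.0190). CML10 (LOC4325762, chromosome 1) had 9.92 and 9.93 in nitrogen roots, against 10.91 and 11.38 in KCl roots, and fell by 1.22 on the log2 scale (adjusted p = 0.0267). A second CML10 probe set, at 4.57 on both nitrogen arrays and 4.64 on both KCl arrays, changed by -0.08 and was not called. CML16 kept its call in 2 of the 8 fits without 1 array (adjusted p up to 0.103 otherwise) and CML10 in 1, that without KCl replicate 1 (up to 0.137 otherwise).

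Among the hormone lists, 1 of 60 auxin genes fell, and of 13 gibberellin genes 1 rose and 1 fell. The auxin gene was PIN5 (LOC4327533, chromosome 1, also listed as PIN9), of the PIN family of auxin carriers. PIN5 had 6.82 and 6.62 in nitrogen roots, against 8.55 and 8.94 in KCl roots. It fell by 2.03 on the log2 scale (SE 0.19, limma adjusted p = 0.0114), the KCl signal being 4.07 times the nitrogen signal, and it was the sole called probe set with a fall of 2 or more. The call was lost without nitrogen replicate 1 or KCl replicate 2 (adjusted p up to 0.0578). In KCl plants the PIN5 signal was 3.29 higher in roots than in shoots. The highest auxin member was IAA2, a repressor of auxin response, at 0.74 ± 0.20, not called.

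KAO (LOC4339885, chromosome 6), the oxidase that makes the gibberellin precursor GA12 from kaurenoic acid, had 7.96 and 8.04 in nitrogen roots, against 6.65 and 6.67 in KCl roots. The groups stood well apart, with a change of 1.34 ± 0.18 (limma adjusted p = 0.0310), although the call was lost without any 1 of the 4 root arrays (adjusted p up to 0.148). CYP714C2 (LOC4351346, chromosome 12), from a cytochrome P450 family whose rice members include gibberellin-modifying enzymes, had 5.53 and 5.48 in nitrogen roots, against 6.47 and 6.18 in KCl roots. It fell by 0.82 on the log2 scale (adjusted p = 0.0474), was called in none of the 8 fits without 1 array (adjusted p up to 0.193), and its other probe set changed by -0.03. KAO and CYP714C2 were also the only called genes among the 29 of the cytochrome P450 list.

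No gene was called among 31 of cytokinin synthesis and response, 82 of abscisic acid and dehydration, 36 of jasmonate and wounding or 11 of ethylene. At an unadjusted p under 0.05, 10 cytokinin genes were higher and 1 was lower, and 15 abscisic acid genes were higher and 2 lower, beside 9.1% of all genes higher and 6.75% lower. Over the 4 fits without 1 root array the cytokinin counts ranged from 5 to 9 higher and 0 to 2 lower, and the abscisic acid counts from 7 to 15 higher and 1 to 3 lower. The median change was 0.12 for the cytokinin list (0.10 to 0.21) and 0.08 for abscisic acid (0.06 to 0.10). For jasmonate it was -0.02 (-0.05 to 0.01) and for ethylene 0.01 (-0.01 to 0.03). The highest cytokinin member was the response regulator RR9, with 8.70 and 9.45 in nitrogen roots, against 8.45 and 8.24 in KCl roots, a change of 0.73 ± 0.26 (limma adjusted p = 0.380). The lowest was LOGL10, of the family that activates cytokinins, at -0.56 ± 0.21.

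The dehydrin gene RAB21 had the largest uncalled rise of the abscisic acid list. RAB21 had 7.86 and 10.27 in nitrogen roots, against 6.80 and 7.54 in KCl roots. Its nitrogen arrays differed by more than the means of the groups, and the change was 1.89 ± 0.84 (limma adjusted p = 0.489). The lowest was the protein phosphatase gene PP2C07, at -0.42 ± 0.13. Of the ethylene and jasmonate lists, the lowest changes were -0.77 ± 0.29 for the ACC oxidase gene ACO1 and -0.63 ± 0.14 for the lipoxygenase gene LOX3. The highest were 0.22 ± 0.10 for EIL1 and 0.57 ± 0.22 for an allene oxide synthase gene, AOS.

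**Figure D2:**
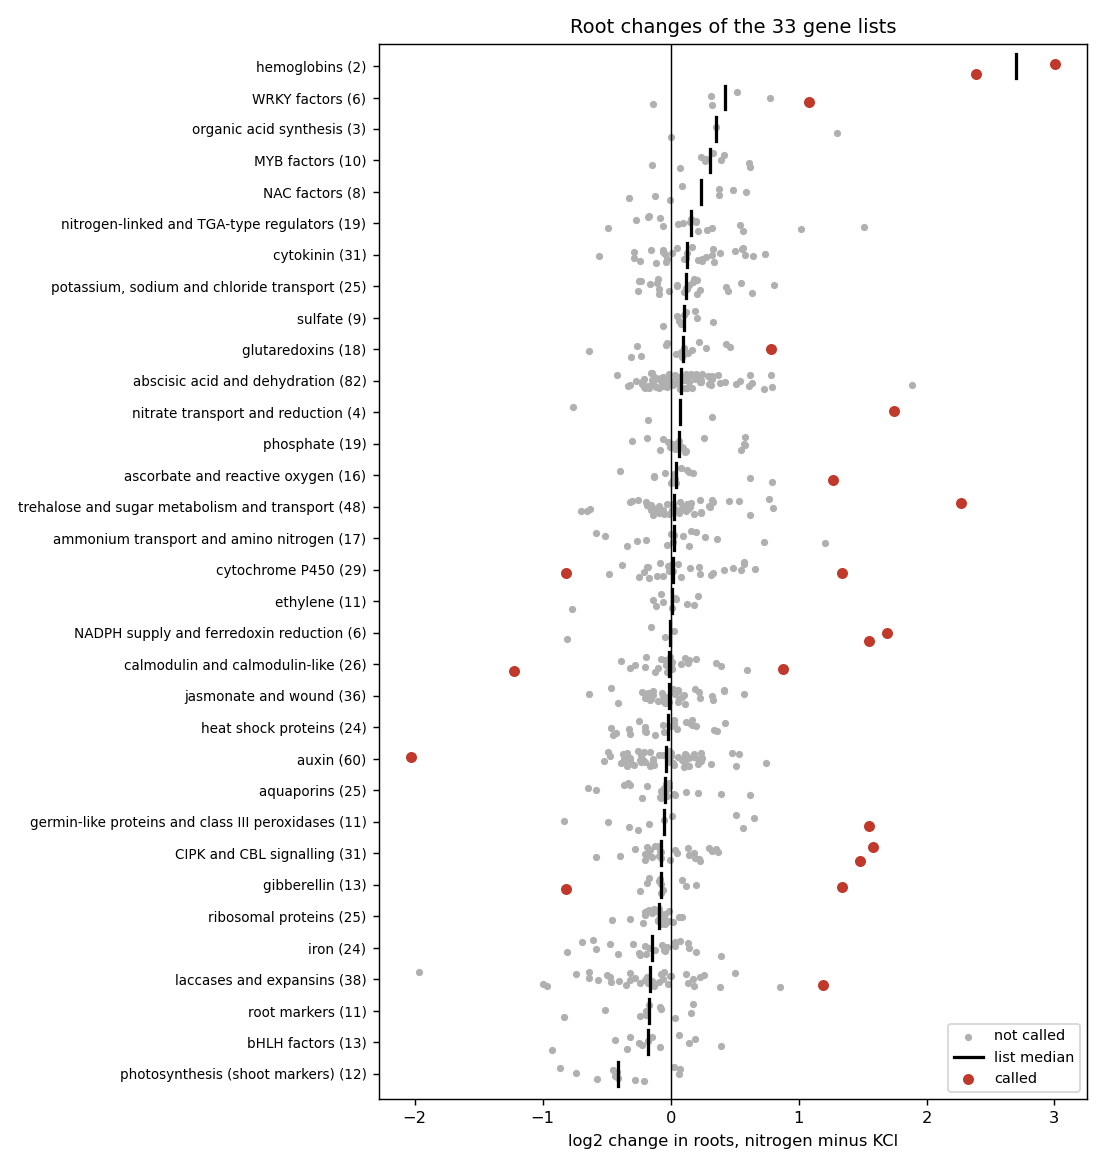
Log2 change in roots, nitrogen minus KCl (horizontal axis), of every measured member of 33 gene lists, each gene read by its brightest probe set, with called genes in red, other genes in grey, the list median as a black bar and the number of measured genes in brackets. A body of grey points lies near 0, and large changes are favoured by the rule for a call. The uncalled LAC10, at -1.97, lies farther from 0 than the called LAC19, at 1.19. No called gene is held by 19 lists, and at least 1 by 14. Without nitrogen replicate 1 or 2 that number was 4 or 10, and without KCl replicate 1 or 2 it was 5 or 1.

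Of the transcription factor lists, 1 held a called gene. WRKY62 (LOC4347070, chromosome 9), a WRKY factor known in rice as a repressor of defence genes, had 9.60 and 9.48 in nitrogen roots, against 8.61 and 8.32 in KCl roots. It rose by 1.08 ± 0.14 (limma adjusted p = 0.0325), with a shoot change of -0.60, and was called in none of the 8 fits without 1 array (adjusted p up to 0.182). The other 5 WRKY genes were not called and ranged from -0.14 (WRKY9) to 0.78 (WRKY76, 9.42 and 9.15 in nitrogen roots, against 8.64 and 8.36 in KCl roots). MADS56 (chromosome 10), a MADS-box factor linked to flowering time in rice, belonged to no list. It had 7.57 and 7.91 in nitrogen roots, against 6.53 and 6.26 in KCl roots, and rose by 1.35 ± 0.18 (adjusted p = 0.0325). MADS56 too was called in none of the 8 fits without 1 array (adjusted p up to 0.143).

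None of the 19 nitrogen-linked and TGA-type regulators was called, and their median change was 0.16 (0.09 to 0.23). TGA factors are bZIP proteins, some of which act in nitrate responses of Arabidopsis roots. TGAL5 had 9.58 and 10.04 in nitrogen roots, against 7.94 and 8.67 in KCl roots, a change of 1.51 ± 0.25 just short of the threshold (limma adjusted p = 0.0680). TGAL8 had a change of 1.02 ± 0.15 (adjusted p = 0.0525). In both, the nitrogen arrays lay above the KCl arrays without overlap, as they did in 18.2% of all probe sets. NIGT1, a repressor that nitrate induces in rice, changed by 0.29 ± 0.11, and the NLP genes, whose products are nitrate sensors or relays in Arabidopsis, by -0.06 (NLP2), -0.17 (NLP3) and -0.27 (NLP1). The lowest member was DOF4, at -0.49 ± 0.12.

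No gene was called among 10 MYB, 8 NAC or 13 bHLH genes. Their median changes were 0.31 (0.25 to 0.40), 0.23 (0.16 to 0.24) and -0.18 (-0.23 to -0.10). Of the 10 MYB genes, 9 had a change above 0, as had 51.2% of all genes. The MYB range was -0.15 (MYB4) to 0.62 (MYBAS2), the NAC range -0.32 (NAC076) to 0.59 (NAC071), and the bHLH range -0.93 (BHLH003) to 0.39 (BHLH063, also named IRO2).

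Redox and cell wall lists held single called genes. MDAR5 (LOC4344670, chromosome 8), a monodehydroascorbate reductase that regenerates ascorbate with NAD(P)H, was the 1 that rose of 16 genes of ascorbate and reactive oxygen. MDAR5 had 12.43 and 12.31 in nitrogen roots, against 11.19 and 11.01 in KCl roots, a change of 1.27 ± 0.11 (limma adjusted p = 0.00842). It lost its call without nitrogen replicate 1 or KCl replicate 2 (adjusted p up to 0.0578). RBOHB, an NADPH oxidase gene, had the lowest change of that list, at -0.39 ± 0.12. Of 18 glutaredoxins, GRXS9 (LOC9269297, chromosome 5) rose, with 11.35 and 11.41 in nitrogen roots, against 10.65 and 10.54 in KCl roots. Glutaredoxins reduce disulfides with glutathione, and several of the GRXS type respond to nitrate in Arabidopsis. The GRXS9 change of 0.78 ± 0.10 (adjusted p = 0.0270) was the smallest of the named rises and was called in none of the 8 fits without 1 array (up to 0.126). GRXS3 had the lowest glutaredoxin change, at -0.64 ± 0.12.

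GER3 (LOC4344838, chromosome 8), a germin-like cell wall protein, was the 1 that rose of 11 germin-like and peroxidase genes. GER3 had 10.22 and 10.17 in nitrogen roots, against 8.56 and 8.73 in KCl roots, a change of 1.55 ± 0.15 (limma adjusted p = 0.0117). The call was lost without nitrogen replicate 1 or either KCl root array (adjusted p up to 0.0812), and the shoot change was 0.05. In the RefSeq gene order LOC4344834, 5 positions away, was called as well, with a change of 0.84 ± 0.12 (adjusted p = 0.0446). It was the only pair of called genes within 5 positions of each other. PRX112, a class III peroxidase, was lowest in the list at -0.83 ± 0.25.

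LAC19 (LOC4351005, chromosome 11), a laccase, which oxidises phenolic compounds such as lignin precursors, was the 1 that rose of 38 laccases and expansins. LAC19 had 7.98 and 7.75 in nitrogen roots, against 6.62 and 6.72 in KCl roots, a change of 1.19 ± 0.11 (limma adjusted p = 0.0114), and it lost its call without nitrogen replicate 1 or either KCl root array (up to 0.0794). The laccase LAC10 had the lowest value of the list, with 6.33 and 7.72 in nitrogen roots, against 9.82 and 8.16 in KCl roots. Its groups did not overlap, with nitrogen below KCl as in 23.1% of all probe sets, but the arrays within each were far apart. The change of -1.97 ± 0.54 was not called (limma adjusted p = 0.236). The median of this list was -0.16 (-0.19 to -0.11), and 27 of its 38 members had a change below 0, against 48.8% of all genes. pla2-II (chromosome 3), a phospholipase A2 outside the lists, had 7.78 and 7.64 in nitrogen roots, against 6.89 and 6.72 in KCl roots. It rose by 0.91 ± 0.12 (adjusted p = 0.0357) and was called in none of the 8 fits without 1 array (adjusted p up to 0.198).

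The other nutrient and housekeeping lists held no called gene. For 25 genes of potassium, sodium and chloride transport the median change was 0.12 (-0.03 to 0.14 without 1 root array, 0.05 without nitrogen replicate 1), with members from -0.26 (HAK17) to 0.81 (HAK16, a potassium transporter gene at 9.19 and 9.31 in nitrogen roots, against 8.45 and 8.42 in KCl roots, limma adjusted p = 0.0833). The nitrogen arrays of HAK16 were above the KCl arrays, as in 18.2% of all probe sets. For 19 phosphate genes the median was 0.07 (0.02 to 0.12, the lowest being that without nitrogen replicate 1), with members from -0.30 (SPX1) to 0.58 (the phosphate transporter gene PHT1-2). For 24 iron genes the median was -0.15 (-0.29 to -0.06, the value nearest 0 being that without nitrogen replicate 1). Members ranged from -0.81 (the iron transporter gene IRT2) to 0.39 (the regulator IRO2). At an unadjusted p under 0.05, 5 members were lower and none higher, beside 6.75% of all genes lower and 9.1% higher. Over the fits without 1 root array these counts ranged from 2 to 7 lower and 0 to 1 higher. The 25 aquaporins ranged from -0.64 (Lsi6) to 0.62 (TIP4-1), the 24 heat shock proteins from -0.47 (HSP17.4) to 0.43 (HSP18.6), the 25 ribosomal proteins from -0.46 (RPL18) to 0.09 (RPL3) and the 9 sulfate genes from -0.06 (APR-like1) to 0.33 (APRL3).

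The marker lists gave no call either. The 12 photosynthesis markers had a median change of -0.41 in nitrogen roots, from -0.87 (PETE) to 0.07 (petC), and without nitrogen replicate 1 their median was 0.24. The sign of that median thus depended on that array. The 11 root markers had a median of -0.17, from -0.83 (PRX112) to 0.17 (SHR1), and -0.06 without that array.

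Most called genes carried a locus number and no name. LOC9270637 (chromosome 1) had the largest change of all called probe sets, with 11.93 and 12.52 in nitrogen roots, against 8.94 and 8.95 in KCl roots. It rose by 3.28 ± 0.19 (limma adjusted p = 0.00158), and in shoots by 4.22. LOC4332162 (chromosome 3) had 9.76 and 10.48 in nitrogen roots, against 7.13 and 7.41 in KCl roots, a rise of 2.85 ± 0.22 (adjusted p = 0.00442). Its shoot signals were 6.58 and 6.73 with nitrogen and 7.03 and 6.95 with KCl. In the RefSeq order LOC4332162 lay 9 gene positions from NSHB1, a fact looked up after its value was seen, and NSHB2 lay 51 positions from NSHB1.

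The next largest rises of unnamed genes were 2.63 ± 0.23 for LOC4333744, 2.59 ± 0.11 for LOC4333430, 2.41 ± 0.17 for LOC4337318 and 2.37 ± 0.18 for LOC4326014. LOC4333430 had the smallest adjusted p of the comparison, 0.000431, with 10.01 and 10.12 in nitrogen roots, against 7.55 and 7.40 in KCl roots. The LOC4333430 probe set carries an s in its ID, so its probes may match further transcripts. The rises that followed were those of LOC4330867 at 2.16, LOC4326671 at 2.04, LOC4338976 at 2.00 and LOC4325684 at 1.78. Of these 10 unnamed genes, LOC9270637, LOC4332162, LOC4333744, LOC4333430, LOC4337318 and LOC4326671 were called in all 8 fits without 1 array. With the root arrays alone, LOC4332162 lost its call (limma adjusted p = 0.0539) and the other 5 kept theirs. LOC4326014 lost its call without KCl replicate 2, LOC4330867 and LOC4325684 without either KCl root array, and LOC4338976 without nitrogen replicate 1 or KCl replicate 1 (adjusted p up to 0.0844).

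The largest falls of unnamed genes were -1.50 ± 0.19 for LOC4326332, -1.38 ± 0.13 for LOC4349769, -1.30 ± 0.15 for LOC4351918, -1.24 ± 0.17 for LOC4337229 and -1.23 ± 0.18 for LOC4339836. LOC4349769 and LOC4351918 were each called on both of their probe sets, the other values being -1.35 and -1.15. Both LOC4351918 probe sets and the called LOC4337229 probe set carry an s or x in their ID. LOC4349769 had 7.89 and 7.60 in nitrogen roots, against 9.08 and 9.16 in KCl roots on the probe set with the larger change. LOC4349769 and LOC4351918 lost their calls without either KCl root array (adjusted p up to 0.105). LOC4337229 kept its call in 2 of the 8 fits without 1 array, and LOC4326332 and LOC4339836 in 1 each, with adjusted p up to 0.206 among these 3. LOC4337229 had further probe sets at -0.70 and -0.18, not called. Of the called probe sets with no gene listed, the largest rises were 1.79 ± 0.15 and 1.78 ± 0.14, and the largest falls were -1.42 ± 0.19 and -1.27 ± 0.19. The rises were called in 6 and 7 of the 8 fits without 1 array and the falls in 0 and 2.

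**Figure D3:**
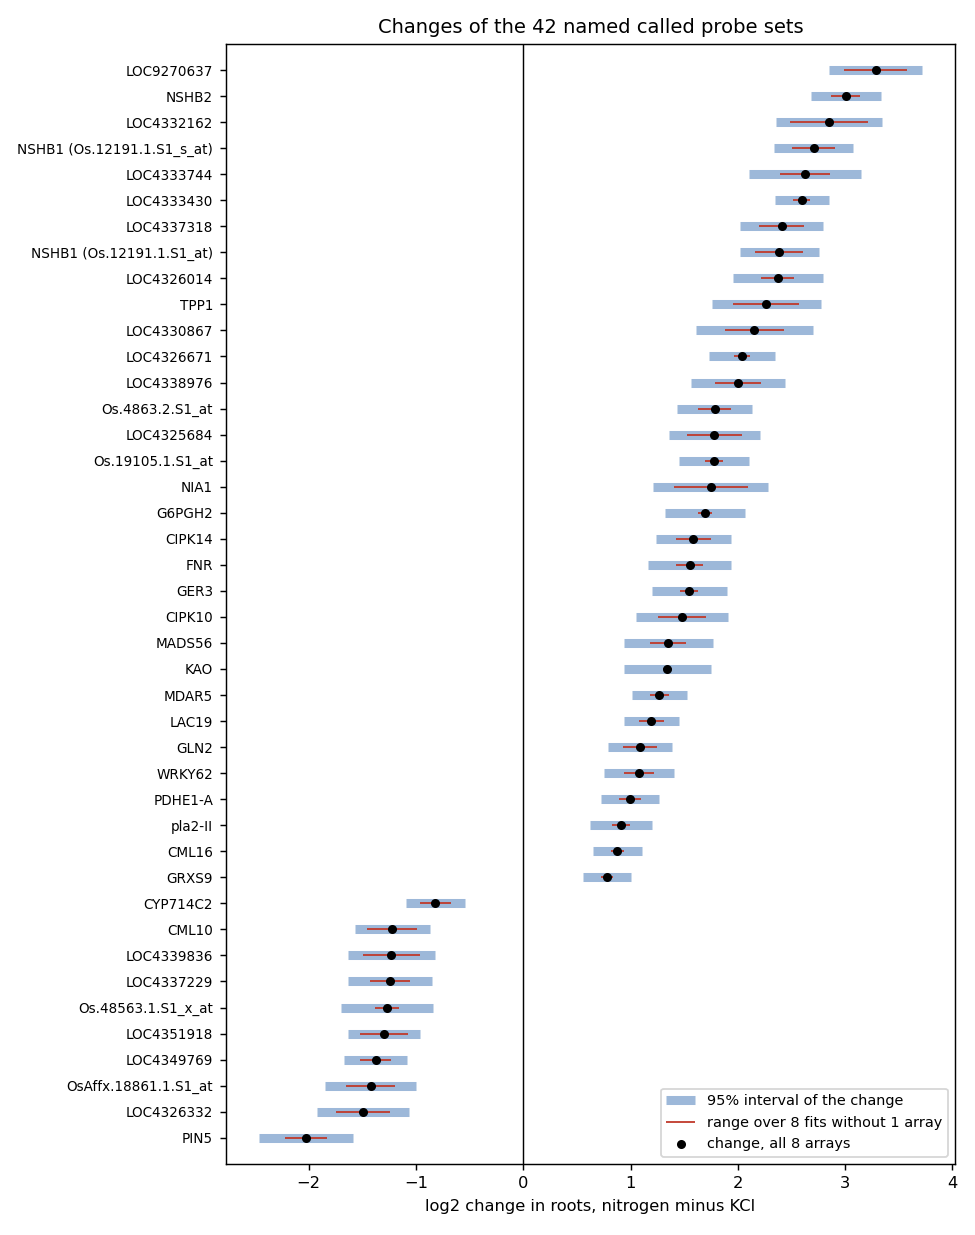
Log2 change in roots, nitrogen minus KCl (horizontal axis), of the 42 called probe sets named in the text, with a black point for the change over all 8 arrays, a blue bar for its 95% interval and a red line for the range over the 8 fits that each left out 1 array. The 42 were chosen by their calls in the same fit and their root groups did not overlap. Neither the intervals nor the ranges could therefore reach 0. No interval or range reaches 0, and 9 of the 42 were called in all 8 fits while 6 were called in none.

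The shoot changes of the root rises ranged widely, from -0.60 for WRKY62 to 4.22 for LOC9270637. In shoots 25 probe sets were called, 0.0437% of those tested, and 20 of these were among the 104 root rises, which is 20 of 25 of the shoot calls and 20 of 104 of the root rises. The tests of both tissues share their estimate of the spread, so their calls are not independent. The shoot change was at least 1 in 23 of the 104 and above 0 in 81 of them, against 51.5% above 0 over all probe sets. Its median over the 104 was 0.23. Over all probe sets 87.8% had a shoot change within 0.25 of 0. The shares at 1 or more and at -1 or less were not counted. The named genes called in both tissues were NSHB2, NSHB1, NIA1, G6PGH2, FNR, MDAR5, LAC19 and CML16. Of the 36 root falls none was called in shoots and none had a shoot change of -1 or less. Their median shoot change was -0.05, with 24 below 0, against 48.5% of all probe sets.

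The difference between the root and the shoot response was tested directly. No probe set was called in that test (0%), while 3450 (6.03%) had an unadjusted p under 0.05, and the lowest adjusted p was 0.279. Without either 1 of the nitrogen root arrays, 1 probe set was called. TPP1, with a root change of 2.27 and a shoot change of -0.22, differed by 2.49 (limma adjusted p = 0.279). LOC4332162 differed by 3.18 and WRKY62 by 1.68, both also at 0.279. GER3 differed by 1.50 and PIN5 by -1.86, both at 0.294. None of the root changes is therefore shown by this test to be particular to roots.

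**Figure D4:**
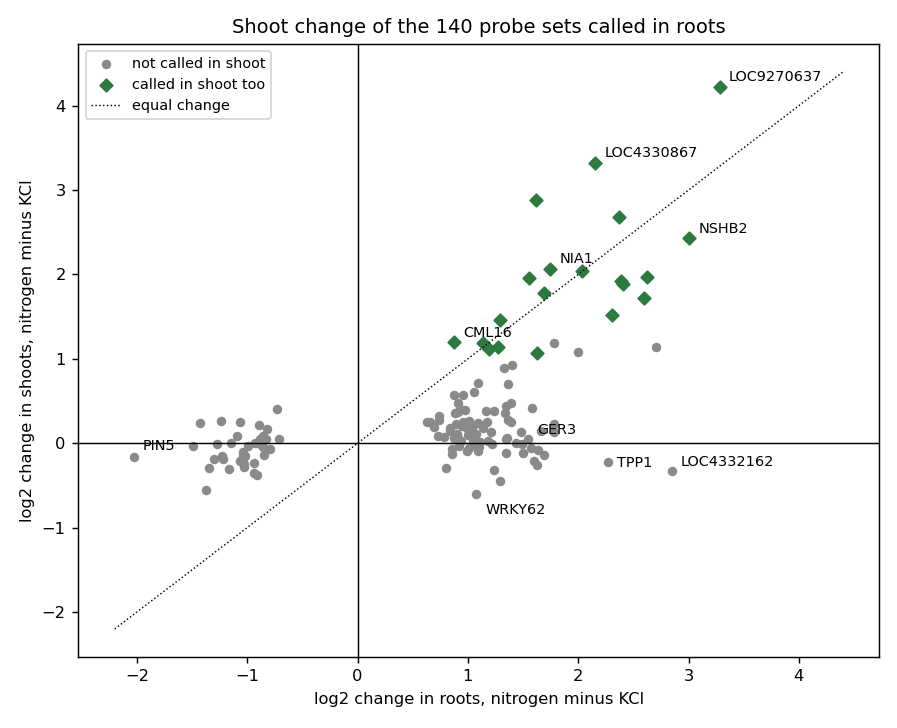
Log2 change in shoots (vertical axis) against log2 change in roots (horizontal axis), both nitrogen minus KCl, of the 140 probe sets called in roots, with green diamonds for the 20 called in shoots too, grey points for the others and a dotted line of equal change. The diamonds lie on both sides of the dotted line, with LOC9270637 highest, while TPP1, LOC4332162 and PIN5 lie near 0 on the shoot axis.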

How the data were processed

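RNA labelled root or shoot from rice seedlings was hybridised to 1-colour Affymetrix rice arrays. The deposited values are log2 signals per probe set, made by the authors with RMA per the submitters' processing notes. The version of RMA is not given in the sources used here, nor whether all arrays went through 1 run. The log2 values were used as deposited, with no rescaling.

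limma 3.58.1 in R 4.3.3 fitted 4 group means over the 8 rice arrays (2 per group) with moderated variances, and p-values were two-sided and adjusted over all 57258 probe sets. The number of arrays limits the precision. Root arrays alone, a replicate block, other normalisations, a filter on dim probe sets, other variance models and leaving out each array were tried as alternatives.

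Genes were named from the platform annotation and a RefSeq table (assembly ASM3414082v1, used for names and gene order). Of the 57258 probe sets, 22436 had 1 gene, 95 several and 34727 none listed, and 2457 of 17905 genes had a name. Members of gene lists were matched by symbol, a gene being read by the probe set of highest mean over the 8 arrays. Named are the called genes with a symbol, up to 20 rises and 10 falls, the 10 largest rises and 5 largest falls of unnamed genes, 2 of each without a gene, called members and both extremes of every list, and every member of the hemoglobin, nitrate and NADPH lists. Other genes given with values were added after their values were seen. The comparison and lists were chosen with earlier results of these data known. p-values measure the spread between arrays labelled biological replicates.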

Additional observations from a re-analysis of the deposited data

Results flagged for a closer look

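A signal outside the comparison stood out among the control probe sets. On root nitrogen replicate 1 the ribosomal RNA controls were at log2 signals of 10.7 and 9.26 for 18S, 8.91 for 25S, 10.3 for 28S and 7.27 for 5.8S. On nitrogen replicate 2 the same probe sets were at 8.52, 6.73, 7.36, 8.67 and 6.80. The highest KCl root values were 8.75, 7.02, 7.55, 8.61 and 6.53, in the same order. All 5 were thus higher on nitrogen replicate 1 than on any other root array. None of the 123 control probe sets was called between the groups by limma, and 3 had an unadjusted p under 0.05. The photosynthesis markers were lowest on the same array, with a mean of 8.49, against 9.63 on nitrogen replicate 2 and at least 9.21 on the KCl root arrays. The part of either signal in the root changes was not tested.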

How the results depend on the processing

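Across the alternatives all 140 calls kept their direction wherever they were measured, and no called named gene turned round. Leaving out an array or weighting the arrays could not have turned these changes round, since the root groups of all 140 did not overlap. Root arrays alone, the replicate block, the dim filter, the variance trend and the fit without moderation leave each change as it was. The direction was thus open only under the other normalisations. The number of calls moved. Root arrays alone gave 20 calls (19 higher, 1 lower), in which 17 of the 42 named called probe sets kept theirs, those of NSHB2, NSHB1, G6PGH2, FNR, GER3, KAO and PIN5 among them. The others, NIA1 and TPP1 included, did not. A limma fit without moderated variances gave 0 calls, although 5236 had an unadjusted p under 0.05. That fit called 10546 probe sets between root and shoot at KCl, against 16366 with moderation. With the replicate number as a block there were 402 (280 higher, 122 lower), all 140 among them. Whether the numbers pair the samples is not established. No label says so, there are 2 numbers, and the deviations of same-numbered arrays correlated at 0.264 between root groups and at 0.0279 to 0.350 over all pairs of groups. Over the 8 fits without 1 array the calls ranged from 18 to 193, the rises from 13 to 81 and the falls from 4 to 112, and those of the difference between root and shoot responses from 0 to 1. Leaving out a nitrogen shoot array gave 66 calls and leaving out a KCl shoot array 95. Under quantile normalisation (149), centring on the median (163), a filter on dim probe sets (109), a variance trend (135) and array weights (136) the number stayed within 1.5 times. The cause of these shifts was not tested, beyond fewer arrays giving fewer degrees of freedom. Of the uncalled named genes, GDH2, PPDK2, TGAL5 and HAK16 passed with the replicate block. RMA values carry no detection call, so whether a dim gene is expressed was not judged.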
